A study of Mus musculus with 12 samples.

Results

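In RNA-seq counts of the mouse adrenal cortex, 9 genes of the mesothelial surface and the organ capsule were followed, out of 49585 genes counted. The 9 genes were *Upk3b*, *Upk1b*, *Krt7*, *Krt19*, *Pkhd1l1*, *Slpi*, *Msln*, *Lrrn4*, and *Wt1*. They were picked on their counts in icosapent ethyl versus HFD mice, where several had higher levels together, so their values in that contrast are a description and not a test. The 12 mice were male C57BL/6J mice that started their diets at 6 weeks of age and stayed on them for 20 weeks. On a low-fat diet there were 4 mice (LFD; 10% of energy as fat, labelled Normal Diet), on a high-fat diet 4 mice (HFD; 60% of energy as fat), and 4 more ate the HFD with icosapent ethyl, a purified eicosapentaenoic acid ethyl ester, added for the last 10 weeks. The study asked whether diet and icosapent ethyl alter steroidogenesis in the adrenal gland, and RNA of the dissected cortex of each mouse was sequenced as 1 library.

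Every mouse carries the label Fads2-/-, whereas the study's methods describe wild-type mice. *Fads2* was counted in every library, at 452 to 2182 CPM (read counts scaled to a common library size), and a gene-level count does not show whether the product is intact. Library totals ran from 34785979 to 67295963 counts. Markers of steroidogenic cells (*Star*, *Cyp11a1*, *Cyp21a1*, *Cyp11b1*, *Cyp11b2*, and *Nr5a1*) summed to 28020 to 76300 CPM, and markers of the chromaffin cells of the medulla to 2408 to 17500 CPM, so transcripts of the medulla were counted in all 12 mice.

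The mesothelium is a flat epithelial sheet that covers organs facing the body cavities and lines those cavities. It carries simple-epithelial keratins, the surface protein mesothelin, and the transcription factor WT1, and it secretes protease inhibitors and lubricating molecules. Beneath the surface of the adrenal gland lies the capsule, a fibrous layer whose mesenchymal cells send signals to the outer cortex and hold progenitors of steroidogenic cells. In bulk RNA, fewer cells of a type and less RNA per cell cannot be told apart.

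The promoters of *Upk3b* and *Lrrn4* are shown because both held the letters of the TEAD motif, although these genes had unlike patterns across the mice. The sequences are the bases before the RefSeq start (GRCm38.p6), 5′ to 3′ on the strand of the gene, and capitals mark the motifs that were found. *Upk3b* lies on the plus strand and its stretch is chr5:136038246-136038495. *Lrrn4* lies on the minus strand and its stretch is chr2:132880892-132881112, ending before its first GENCODE exon.
Upk3b: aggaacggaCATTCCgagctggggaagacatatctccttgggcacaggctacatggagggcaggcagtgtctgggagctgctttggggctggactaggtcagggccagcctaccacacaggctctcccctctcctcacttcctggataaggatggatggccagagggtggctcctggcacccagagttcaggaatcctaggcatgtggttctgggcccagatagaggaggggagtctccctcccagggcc
Lrrn4: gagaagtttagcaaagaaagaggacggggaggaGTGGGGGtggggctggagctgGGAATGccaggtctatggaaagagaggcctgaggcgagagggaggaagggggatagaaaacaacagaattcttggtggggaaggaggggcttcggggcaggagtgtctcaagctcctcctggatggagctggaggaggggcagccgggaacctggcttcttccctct

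On both strands, 6 motifs were searched in the 250 bases before the start, for the 4 of the 9 genes with a promoter in the RefSeq table (*Upk3b*, *Krt7*, *Slpi*, and *Lrrn4*). GGAATG (TEAD) was found once in *Lrrn4* and, on the opposite strand as CATTCC, once in *Upk3b*, and 12.6% of 32851 promoters held it. GTGGGNG (EGR and WT1 type) was found in *Lrrn4* and *Krt7*, and in 28.1% of promoters. GGGCGG (SP and KLF) was found 4 times in *Krt7* and in 32.7% of promoters. None of the 4 windows held the TATA box TATAAA, which 12.4% of promoters held. The AP-1 motif TGANTCA (6.75% of promoters) and the GATA motif AGATAA (9.99% of promoters) were in none of them either, and *Slpi* held none of the 6. The hits did not overlap one another.

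*Upk3b* encodes a uroplakin, a membrane protein first known from the plaques of the urothelium and also made by mesothelium. It lies at chromosome 5:136038496-136046487 (GRCm38). *Upk3b* had 2.88, 0.386, 0.69, and 0.095 CPM in LFD mice 2, 5, 6, and 7. In HFD mice 1 to 4 it had 1.04, 1.14, 0.511, and 0.43 CPM, and in icosapent ethyl mice 1 to 4 it had 14.2, 9.43, 1.94, and 3.12 CPM. All 4 icosapent ethyl mice were above all 4 HFD mice, and mice 1 and 2 were the highest of the group. The mean was 7.17 ± 5.73 CPM with icosapent ethyl and 0.782 ± 0.363 CPM on the HFD alone (SD, n = 4 each), which is a log2 difference of 3.18 (SE 0.67) in the edgeR fit.

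*Upk1b*, at chromosome 16:38773184-38800328, encodes a tetraspanin that pairs with uroplakins of the third type in the membrane. It had 0.451, 0.0214, 0.0891, and 0.0475 CPM in LFD mice 2, 5, 6, and 7 and 0.149, 0.174, 0.0974, and 0 CPM in HFD mice 1 to 4. In icosapent ethyl mice 1 to 4 it had 2.2, 2.16, 0.484, and 0.468 CPM. The icosapent ethyl mice were above every mouse of either other group, with mice 1 and 2 again highest. These were 20 reads over the 4 HFD mice, and the 0 in HFD mouse 4 allows a level of up to 0.0678 CPM (3 counts, counting error only). Over the HFD alone, the edgeR log2 fold change was 3.58 (SE 0.81).

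*Krt7* encodes a type II keratin of simple epithelia, and its locus, at chromosome 15:101411043-101430313, overlaps the antisense gene *Gm671*, from which the strand-specific counting separated it. It had 0.564, 0.322, 0.423, and 0.0713 CPM in LFD mice 2, 5, 6, and 7. In HFD mice 1 to 4 it had 0.192, 0.29, 0.219, and 0.136 CPM, and in icosapent ethyl mice 1 to 4 it had 1.49, 1.26, 0.525, and 0.452 CPM. The icosapent ethyl and HFD mice did not overlap, while icosapent ethyl mice 3 and 4 lay within the LFD range. Icosapent ethyl versus HFD gave a log2 fold change of 2.11 (SE 0.47).

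*Krt19*, at chromosome 11:100140810-100148665, encodes a type I keratin, the kind that pairs with type II keratins in filaments. It had 0.677, 0.107, 0.178, and 0.095 CPM in LFD mice 2, 5, 6, and 7 and 0.277, 0.116, 0.243, and 0.181 CPM in HFD mice 1 to 4. In icosapent ethyl mice 1 to 4 it had 2.71, 2.27, 0.262, and 0.339 CPM. Icosapent ethyl mice 1 and 2 stood apart from all other mice and mouse 3 lay within the HFD range, so the groups overlapped. The log2 fold change over the HFD was 2.74 (SE 0.81).

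*Pkhd1l1*, at chromosome 15:44457494-44601369, encodes a very large receptor-like membrane protein related to fibrocystin. It had 0.188, 0.0857, 0.0668, and 0 CPM in LFD mice 2, 5, 6, and 7, and the 0 allows up to 0.0713 CPM. In HFD mice 1 to 4 it had 0.0852, 0.0387, 0.0487, and 0.0452 CPM, and in icosapent ethyl mice 1 to 4 it had 1.17, 0.922, 0.343, and 0.388 CPM. The icosapent ethyl mice were above every LFD and every HFD mouse. The log2 fold change over the HFD was 3.61 (SE 0.56), set against 10 reads in all over the 4 HFD mice.

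*Slpi* encodes a secreted inhibitor of serine proteases such as neutrophil elastase, and lies at chromosome 2:164354070-164389095, where the microRNA gene *Mir7678* overlaps it on the same strand. It had 2.27, 0.429, 0.713, and 0.143 CPM in LFD mice 2, 5, 6, and 7. In HFD mice 1 to 4 it had 0.681, 1.55, 1.46, and 0.339 CPM, and in icosapent ethyl mice 1 to 4 it had 7.59, 4.0, 3.98, and 1.71 CPM. All icosapent ethyl mice were above all HFD mice, and LFD mouse 2 was above icosapent ethyl mouse 4. Icosapent ethyl versus HFD gave a log2 fold change of 2.09 (SE 0.56).

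*Msln* encodes mesothelin, a surface protein held by a lipid anchor, and lies at chromosome 17:25748613-25754378. It had 3.61, 1.8, 0.98, and 1.83 CPM in LFD mice 2, 5, 6, and 7 and 2.17, 1.65, 2.0, and 1.38 CPM in HFD mice 1 to 4. In icosapent ethyl mice 1 to 4 it had 5.92, 4.43, 1.74, and 1.66 CPM. Icosapent ethyl mice 1 and 2 were above all others, while mice 3 and 4 lay within the HFD range. Compared with the HFD alone, the log2 fold change was 0.93 (SE 0.43).

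*Wt1*, at chromosome 2:105126529-105173616, encodes a zinc finger transcription factor needed for development of the adrenal gland, kidney, and gonad. It had 0.696, 0.471, 0.579, and 0.452 CPM in LFD mice 2, 5, 6, and 7 and 0.447, 0.62, 0.608, and 0.384 CPM in HFD mice 1 to 4. In icosapent ethyl mice 1 to 4 it had 1.06, 0.975, 0.484, and 0.501 CPM. Mice 1 and 2 of the icosapent ethyl group were again the highest of the 12, and mice 3 and 4 lay within both other groups. Compared with the HFD alone, the log2 fold change was 0.53 (SE 0.34).

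*Lrrn4*, at chromosome 2:132868305-132880891, encodes a leucine-rich repeat protein that spans the membrane and is used as a mesothelial marker. Which cells held its RNA in these samples was not tested. The description of *Lrrn4* as a marker does not come from these counts. *Lrrn4* had 7.37, 8.85, 6.92, and 7.11 CPM in LFD mice 2, 5, 6, and 7. In HFD mice 1 to 4 it had 13.0, 13.3, 10.0, and 19.1 CPM, and in icosapent ethyl mice 1 to 4 it had 9.53, 10.7, 9.3, and 15.3 CPM. Its order differed from that of the other genes, with the HFD mice highest in mean, the LFD mice lowest, and mouse 4 highest within each of the HFD groups. Against the HFD, icosapent ethyl gave a log2 fold change of -0.30 (SE 0.23), with overlapping groups.

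**Figure D1:**
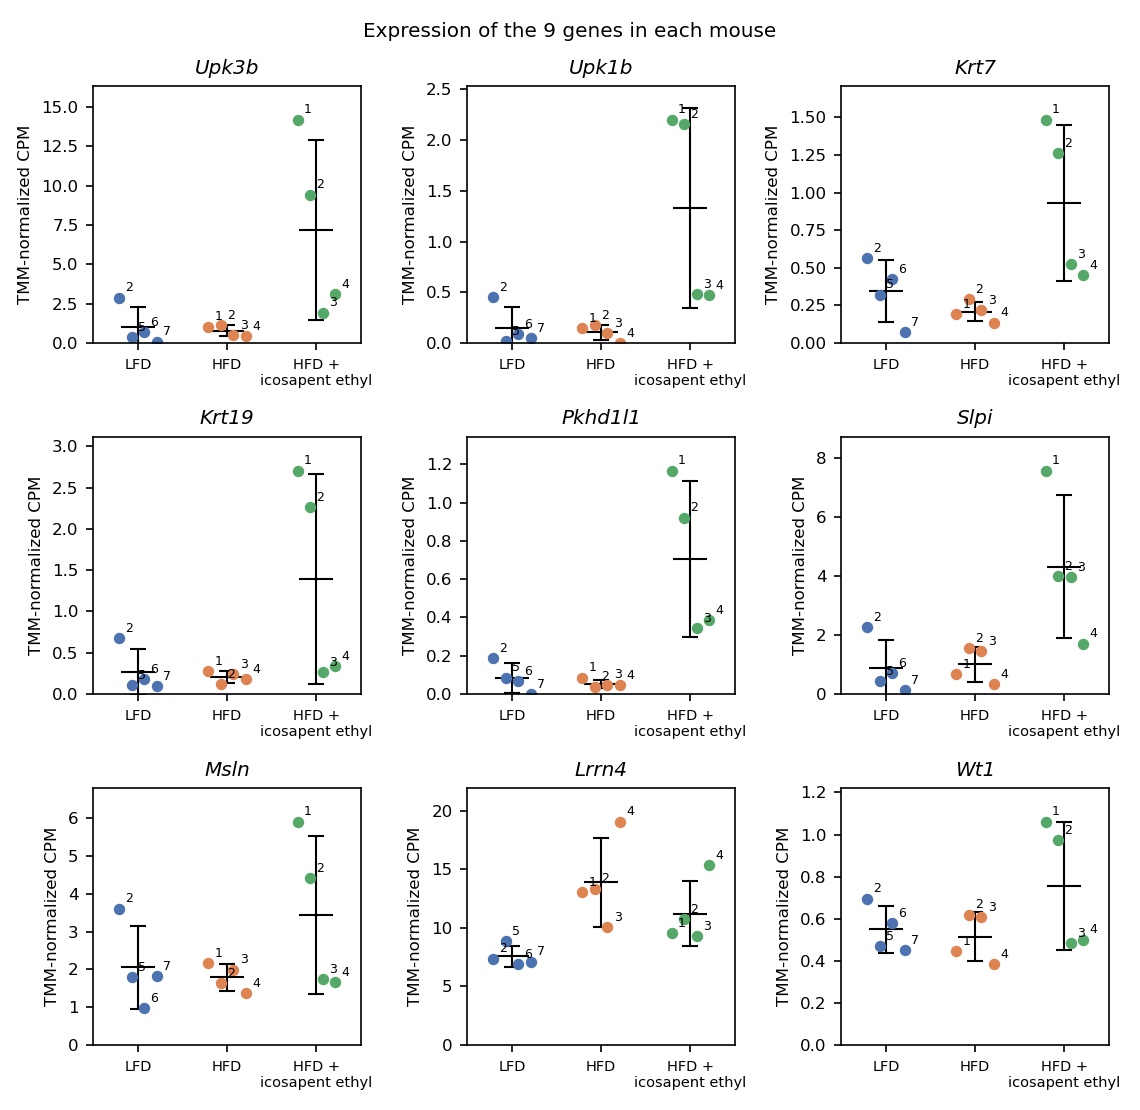
Each panel plots the TMM-normalized CPM of 1 gene in the 12 mice, on a linear axis from 0, with points labelled by replicate number and black bars for the mean ± SD of each group (n = 4). In 8 panels the highest points are icosapent ethyl mice 1 and 2, and in the *Lrrn4* panel HFD mouse 4 is the highest, at 19.1 CPM.

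The comparison of diets was not the one on which the genes were picked, although it shares the 4 HFD mice with it. Of the 9 genes, 6 had enough reads to be tested in HFD versus LFD mice (*Upk1b*, *Krt19*, and *Pkhd1l1* did not), and the quasi-likelihood test of edgeR called 0 of the 6 at an adjusted p under 0.05, against 1.45% of the 15909 genes tested. At an unadjusted p under 0.05, 1 of them (*Lrrn4*) and 3949 of all genes were found. *Lrrn4* was 7.56 ± 0.878 CPM on the LFD and 13.9 ± 3.78 CPM on the HFD (SD, n = 4 each). Its log2 fold change was 0.86 with SE 0.20, and the adjusted p of edgeR was 0.062. The lowest HFD mouse was above the highest LFD mouse for *Lrrn4*, as it was for 7.71% of all genes tested.

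*Lrrn4* passed the threshold under 2 of 14 alternatives, the Wald test of DESeq2, which called 12.7% of genes, and the edgeR fit to all 12 mice, which called 3.42%. Its adjusted p ran from 0.00162 to 0.182 over these alternatives. The other 5 tested genes had log2 fold changes from -0.74 (*Krt7*, SE 0.53, adjusted p = 0.417 by edgeR) to 0.14 (*Slpi*, SE 0.76, adjusted p = 0.931). *Upk3b* had -0.41 (SE 0.82, adjusted p = 0.797), *Msln* -0.21 (SE 0.38, adjusted p = 0.77), and *Wt1* -0.11 (SE 0.27, adjusted p = 0.84), all by edgeR.

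These values leaned on LFD mouse 2, the highest LFD mouse in 8 of the 9 genes. Without it, *Upk3b* went from -0.41 to 0.99, *Msln* from -0.21 to 0.23, and *Wt1* from -0.11 to 0.04 on the log2 scale, and *Slpi* went from 0.14 to 1.22. None of these 4 passed the threshold with or without that mouse. The median log2 fold change of the 6 tested genes was -0.16 with LFD mouse 2 and 0.55 without it, and the median of all genes was -0.01.

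With icosapent ethyl, 8 of the 9 genes had higher levels than on the HFD alone and 5 did not overlap between the groups, against 0.484% of the 15913 genes tested, a contrast that had chosen the genes. The 5 were *Upk3b*, *Upk1b*, *Krt7*, *Pkhd1l1*, and *Slpi*. Of these, *Upk1b*, *Krt7*, and *Pkhd1l1* passed the filter on low counts only through the icosapent ethyl group. They had 20, 39, and 10 reads over the 4 HFD mice, so no support is drawn from the count of 5. The median log2 fold change was 2.11 over the 9 genes and 0.004 over all genes. By edgeR 0 genes passed an adjusted p of 0.05, which is 0% of those tested, and 221 had an unadjusted p under 0.05. The Wald test of DESeq2 called 6 genes, or 0.0377%, all with higher levels on icosapent ethyl. Among them were 3 of the 9 (*Upk3b*, *Upk1b*, and *Pkhd1l1*), which is a description because this contrast chose them and because *Upk1b* and *Pkhd1l1*, with 20 and 10 reads over the HFD mice, passed the filter only through the icosapent ethyl group. The others, named after their values were seen, were *Serpina5* (log2 fold change 0.90), *Rsrp1* (0.57), and *Mettl27* (0.39).

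Against the LFD mice, icosapent ethyl mice had higher means of all 9 genes, but this comparison shares the icosapent ethyl mice with the one that chose them. The groups did not overlap for 3 of the 9 genes (*Upk1b*, *Pkhd1l1*, and *Lrrn4*), and 4.04% of the 15935 genes tested were higher without overlap. *Upk1b*, *Krt19*, and *Pkhd1l1* passed the filter on low counts here, as against the HFD mice, only through the icosapent ethyl group, with 31, 53, and 17 reads over the 4 LFD mice, so no support is drawn from the count. The log2 fold changes were 2.79 (SE 0.94) for *Upk3b*, 3.02 (SE 0.86) for *Upk1b*, and 2.92 (SE 0.69) for *Pkhd1l1*. They were 1.39 (SE 0.57) for *Krt7*, 2.32 (SE 0.90) for *Krt19*, and 2.25 (SE 0.73) for *Slpi*. *Msln* had 0.73 (SE 0.51), *Lrrn4* 0.57 (SE 0.19), and *Wt1* 0.43 (SE 0.33). Single mice changed the size of these values. Leaving out icosapent ethyl mouse 1 lowered all of them except that of *Lrrn4*, with *Upk3b* at 2.23 and *Msln* at 0.33. Leaving out LFD mouse 2 raised all of them except that of *Lrrn4*, though that of *Wt1* only a little. Without it the log2 fold changes were 4.17 for *Upk3b*, 4.57 for *Upk1b*, 3.66 for *Pkhd1l1*, 1.73 for *Krt7*, 3.40 for *Krt19*, 3.31 for *Slpi*, 1.15 for *Msln*, 0.56 for *Lrrn4*, and 0.57 for *Wt1*. By edgeR 0 genes passed in this comparison, or 0%, with 2225 at an unadjusted p under 0.05. The Wald test of DESeq2 called 471 (2.96%), of which 3 were among the 9 (*Pkhd1l1*, *Upk1b*, and *Slpi*). These 3 are a description, because the icosapent ethyl mice also served in the contrast that chose the genes. In addition, *Upk1b* and *Pkhd1l1* passed the filter only through those mice.

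**Figure D2:**
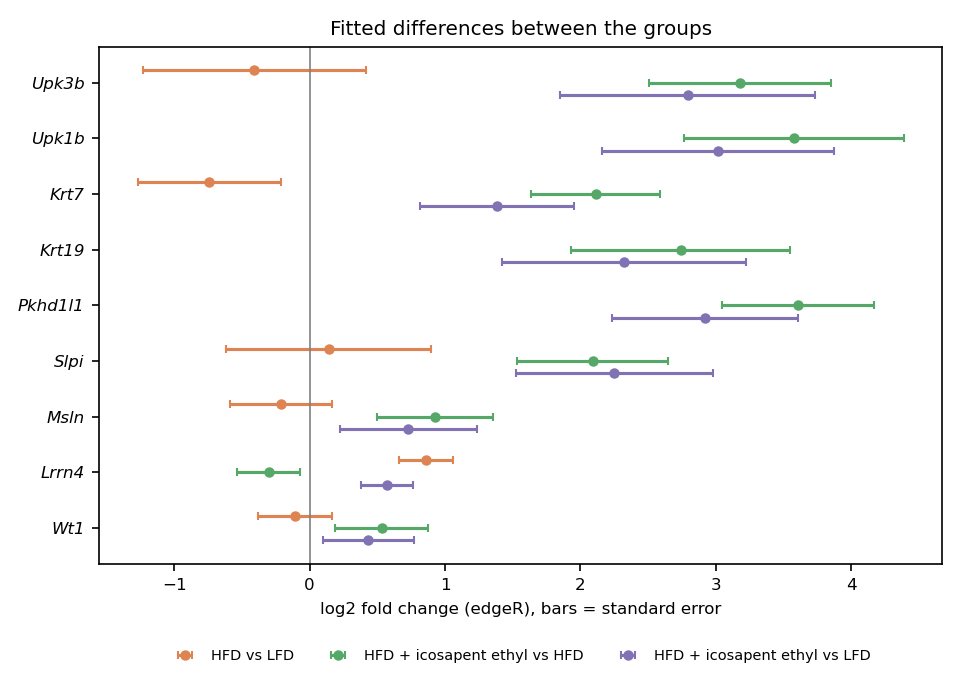
Points are edgeR log2 fold changes of each gene in 3 comparisons, with bars for the standard error, and the vertical line marks no difference. *Upk1b*, *Krt19*, and *Pkhd1l1* have no HFD versus LFD point because they were not tested there. The icosapent ethyl points lie right of 0 for every gene except *Lrrn4* against the HFD (-0.30).

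Within the icosapent ethyl group the levels were uneven. Summed over the 8 genes other than *Lrrn4*, mice 1 and 2 had 36.3 and 25.5 CPM and mice 3 and 4 had 9.75 and 8.64 CPM. The HFD mice had from 2.89 to 5.58 CPM, and the LFD mice from 2.73 to 11.3 CPM, the highest being LFD mouse 2. In this sum mice 3 and 4 were above every HFD mouse but below LFD mouse 2. With *Lrrn4* included, the 9 genes summed to 45.9, 36.2, 19.1, and 24.0 CPM in icosapent ethyl mice 1 to 4, to 15.2 to 22.0 CPM in HFD mice, and to 9.84 to 18.7 CPM in LFD mice. In that sum mouse 3 lay within the HFD range, and all 4 icosapent ethyl mice were above LFD mouse 2. Icosapent ethyl mice 1 and 2 were also the libraries with the lowest totals of the 12 (36651845 and 34785979 counts, against 50494358 and 67295963 in mice 3 and 4), and the part of depth in the result was not tested. Leaving out any 1 mouse kept the median log2 fold change of the 9 genes over the HFD between 1.80 and 2.38. This range is a description, since the genes were picked on this contrast. It does not measure the unevenness, because icosapent ethyl mouse 1 or 2 stayed in each of these fits.

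The levels of the genes were compared with each other per kilobase of exon, taken as the union of all annotated exons. In LFD and HFD mice the order of means from the top was *Lrrn4*, *Slpi*, *Msln*, *Upk3b*, *Krt19*, *Wt1*, *Upk1b*, *Krt7*, and *Pkhd1l1*. *Lrrn4* had 2.04 ± 0.236 CPM per kilobase in LFD mice and 3.73 ± 1.02 in HFD mice (SD, n = 4 each), and in HFD mice its range was clear of that of *Slpi* at 0.854 ± 0.502. With icosapent ethyl the order was *Slpi*, *Lrrn4*, *Upk3b*, *Msln*, *Krt19*, *Upk1b*, *Krt7*, *Wt1*, and *Pkhd1l1*. *Slpi* had 3.66 ± 2.06 and *Upk3b* 2.03 ± 1.62 CPM per kilobase there. Every pair of neighbours overlapped in LFD mice. In HFD mice *Lrrn4* and *Slpi*, *Msln* and *Upk3b*, and *Krt7* and *Pkhd1l1* did not, and with icosapent ethyl *Upk1b* and *Krt7*, and *Wt1* and *Pkhd1l1*, did not.

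Across the 12 mice, the 8 genes other than *Lrrn4* moved together. Pearson's r of log2 CPM ran from 0.65 to 0.945 over their 28 pairs, with a median of 0.86 and the highest value for *Upk3b* and *Pkhd1l1*. The r of *Lrrn4* with the others ran from -0.27 to 0.11. These values are descriptions, since the mice fall in 3 groups, the genes share libraries, and they were picked for a common pattern.

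The 10 genes with the most similar profile among 16253 compared, by r with the mean z-score of the 9 genes over 12 mice, were *C3* (0.951), *Adgrd1* (0.936), *Dpt* (0.906), *Bid* (0.866), *Lgals7* (0.848), *Osr1* (0.840), *Gm13091* (0.835), *Rwdd2b* (0.830), *Gm13778* (0.824), and *Timmdc1* (0.822). *C3*, the central component of complement, had 18.5 ± 6.90 CPM in LFD, 16.2 ± 3.59 in HFD, and 42.8 ± 23.7 in icosapent ethyl mice (SD, n = 4 each). *Adgrd1*, an adhesion G protein-coupled receptor, had 1.04 ± 0.247, 1.11 ± 0.117, and 2.45 ± 1.30 CPM in the same order. *Dpt*, the matrix protein dermatopontin, had 5.32 ± 3.10, 5.19 ± 1.20, and 8.21 ± 3.19 CPM. In these 3 genes the icosapent ethyl mean was the highest and its spread was wide, while *Timmdc1* varied only from 37.3 to 38.5 CPM between group means. The 10 genes were selected for likeness to a profile that peaked in icosapent ethyl mice 1 and 2. A highest icosapent ethyl mean is therefore a description.

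**Figure D3:**
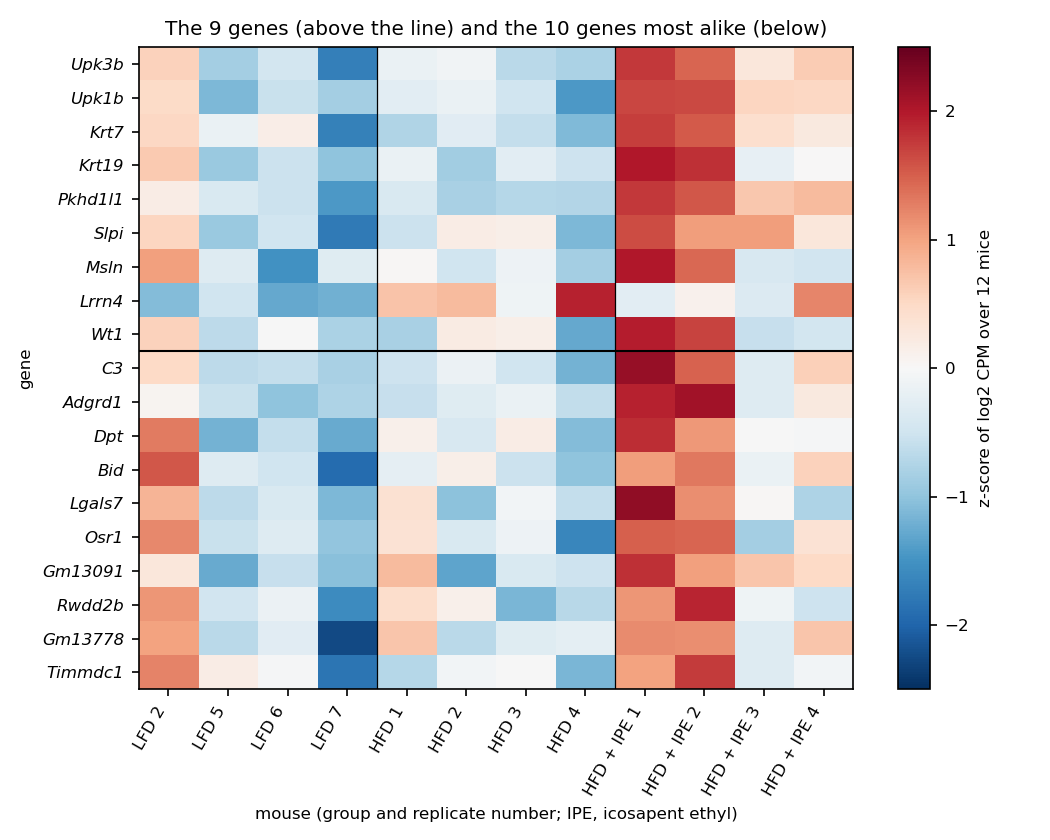
Colours give the z-score of log2 CPM of each gene over the 12 mice, with the 9 genes above the horizontal line, the 10 most similar genes below it, and vertical lines between the groups. Icosapent ethyl mice 1 and 2 are red for every gene except *Lrrn4*, LFD mouse 2 is red or near white for most, and *Lrrn4* is highest in HFD mouse 4.

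Other genes used as mesothelial markers were read from a list of 19 that left out the 9. In HFD versus LFD mice 15 were tested, all 15 had lower values on the HFD, and 2 fell past an adjusted p of 0.05 by edgeR, against 0.471% of all genes tested that passed in that direction. *Bcam*, a laminin-binding adhesion molecule, fell from 128 ± 5.11 to 86.9 ± 3.50 CPM (SD, n = 4 each), with a log2 fold change of -0.57 ± 0.07 (SE) and an edgeR adjusted p of 0.0293. *Rarres2*, which encodes the secreted protein chemerin, fell from 33.1 ± 5.27 to 21.2 ± 1.06 CPM (SD, n = 4 each), with a log2 fold change of -0.65 ± 0.13 (SE) and an edgeR adjusted p of 0.0491. No LFD and HFD mice overlapped for either gene, but both were named for passing the adjusted p. The share of all genes without overlap in this direction was not counted. The median of the 15 was -0.80, where the median of the 6 tested surface genes was -0.16. Neither call held without HFD mouse 2, 3, or 4 or LFD mouse 5, 6, or 7, since 0 genes passed in those fits. *Muc16*, *Bnc1*, *Calb2*, and *Krt8* had too few reads to be tested for HFD versus LFD. Lower values on the HFD were not particular to this list. All 5 chromaffin markers (median log2 fold change -1.20) and 9 of 10 capsule and stroma genes (-0.44) were lower too. Which cells held the RNA of the listed genes was not tested.

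With icosapent ethyl, 14 of the 16 tested genes of that list had higher values than on the HFD, with a median log2 fold change of 0.48 and 0 called. *Aldh1a2*, a retinoic acid synthesizing enzyme, had 80.3 ± 4.46, 58.8 ± 7.50, and 56.1 ± 11.6 CPM in LFD, HFD, and icosapent ethyl mice. *Efemp1*, an extracellular matrix protein, had 79.7 ± 35.3, 32.0 ± 18.3, and 48.8 ± 13.8 CPM, and *Igfbp6*, a binding protein of insulin-like growth factors, had 63.5 ± 22.9, 30.1 ± 6.18, and 36.8 ± 10.2 CPM (SD, n = 4 each). Over all 19 genes of the list, the icosapent ethyl mean was the highest of the 3 group means for 4, between the others for 12, and the lowest for 3. Named after their values were seen, the 4 were *Gpm6a* (3.14, 1.82, and 4.27 CPM in LFD, HFD, and icosapent ethyl mice), *Krt8* (0.304, 0.180, and 0.584 CPM), *Muc16* (0.0376, 0.0318, and 0.448 CPM), and *Bnc1* (0.0597, 0.0206, and 0.299 CPM). Of the 9 surface genes, 8 were highest in mean with icosapent ethyl, a pattern they were picked on. *Ezr*, which encodes the membrane-cytoskeleton linker ezrin, had 33.0 ± 5.55, 26.9 ± 2.10, and 27.3 ± 2.93 CPM. *Muc16*, *Bnc1*, and *Calb2* had too few reads to be tested in any comparison, and *Muc16*, a large surface mucin, reached 49 reads at most, in icosapent ethyl mouse 1.

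The list of 10 adrenal capsule and stroma genes summed to 433 to 777 CPM in LFD, 327 to 465 in HFD, and 363 to 490 in icosapent ethyl mice, and none of the 10 was at 0. It had 9 genes with lower values in HFD than LFD mice, a median log2 fold change of -0.44, and 0 called. Over the HFD, icosapent ethyl gave a median of 0.12 with 7 of 10 higher. *Dcn*, a proteoglycan of collagen fibrils, had 223 ± 53.4, 116 ± 23.9, and 135 ± 24.4 CPM in LFD, HFD, and icosapent ethyl mice. *Rspo3*, a capsular ligand that strengthens WNT signalling, had 63.2 ± 32.0, 29.1 ± 5.81, and 35.4 ± 5.55 CPM (SD, n = 4 each). In the same order *Col1a2* had 87.7 ± 17.1, 76.3 ± 16.5, and 67.99 ± 16.35 CPM. *Nr2f2* had 79.9 ± 16.6, 69.65 ± 9.39, and 74.6 ± 4.10 CPM. The 3 genes with lower values on icosapent ethyl than on the HFD were *Col1a2*, *Col1a1*, and *Pdgfra* (log2 fold changes -0.17, -0.21, and -0.11). The sum was highest in LFD mouse 2 (777 CPM), and in the icosapent ethyl group it was 490 and 472 CPM in mice 1 and 2 and 363 and 363 CPM in mice 3 and 4. In the HFD group it was 465 and 454 CPM in mice 1 and 2 and 359 and 327 CPM in mice 3 and 4. In both groups mice 1 and 2 had higher *Upk3b* and higher capsule sums than mice 3 and 4. The order within these pairs did not always match, as HFD mouse 2 had more *Upk3b* than HFD mouse 1 but a lower sum. LFD mouse 7, with the lowest *Upk3b*, had the second sum of its group (602 CPM), and the part of the capsule in the result was not tested.

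Among the other uroplakins, *Upk2* and *Upk3a* were at 0 in all 12 mice and *Upk1a* had at most 7 reads. Urothelial markers summed to at most 1.21 CPM in any mouse, and *Krt5*, *Upk2*, and *Upk3a* of the 7 were at 0 throughout. Kidney markers summed to at most 0.452 CPM, with *Umod*, *Nphs1*, and *Kap* of the 8 at 0, and markers of the exocrine pancreas to at most 0.116 CPM, with *Cpa1* of the 6 at 0. In icosapent ethyl mice 1 and 2, where *Upk3b* was highest, urothelial markers summed to 0.557 and 0.659 CPM, kidney markers to 0.292 and 0.158 CPM, and pancreatic markers to 0.0265 and 0.0264 CPM. The part of these tissues in the result was not tested. Liver markers summed to 4.85 to 27.0 CPM in icosapent ethyl, 5.58 to 14.3 in HFD, and 6.34 to 11.6 in LFD mice. Most of the LFD and HFD sums was *Ahsg*, with means of 8.0, 8.97, and 8.23 CPM in LFD, HFD, and icosapent ethyl mice. The albumin gene *Alb* had means of 0.0332, 0.378, and 3.10 CPM in the same order. The sum was highest in icosapent ethyl mouse 4, with 717 reads of *Alb*. That mouse had, at 3.12 CPM, the third level of *Upk3b* among the 12 mice, and the part of liver RNA in the result was not tested.

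Adipocyte markers summed to 244 to 393 CPM in LFD, 363 to 441 in HFD, and 313 to 418 in icosapent ethyl mice, highest within the last group in mouse 1. Most of each sum came from *Plin1* and *Fabp4*, with means of 169 and 150 CPM over the 12 mice. In LFD, HFD, and icosapent ethyl mice *Lep* had 1.2, 11.3, and 8.77 CPM, and *Adipoq* 5.39, 7.73, and 8.77 CPM. *Cidec* had 4.62, 13.3, and 9.83 CPM in the same order, while *Cfd* had 9.12, 2.09, and 5.30 CPM. Of the 7 adipocyte markers, 5 were higher in HFD than LFD mice and 0 were called. With icosapent ethyl 3 of 7 were higher than on the HFD. Steroidogenic markers had their lowest icosapent ethyl sums in mice 1 and 2 (52260 and 40690 CPM, against 58610 and 70600 in mice 3 and 4) and their lowest LFD sum in mouse 2 (28020 CPM). All 6 had higher values in HFD than LFD mice with 0 called, and all 6 had lower values with icosapent ethyl than on the HFD, at a median log2 fold change of -0.14. The part of adipocyte or steroidogenic RNA in the result was not tested.

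Chromaffin markers summed to 4925 to 17500 CPM in LFD, 2408 to 7750 in HFD, and 4390 to 8504 in icosapent ethyl mice, with all 5 lower in HFD than LFD mice and 0 called. Of 5 macrophage markers, 3 fell in HFD versus LFD mice (*Cd68*, *C1qa*, and *Lyz2*, log2 fold changes -1.25, -0.74, and -0.96, edgeR adjusted p 0.0376, 0.0376, and 0.0398), against 0.471% of all genes that passed in that direction, and these calls too were lost without HFD mouse 2, 3, or 4 or LFD mouse 5, 6, or 7. The macrophage sums were 518 to 777, 337 to 410, and 378 to 515 CPM in LFD, HFD, and icosapent ethyl mice. Neutrophil markers summed to 5.34 to 25.7 CPM over the 12 mice, with 0 of 5 tested genes called, and in icosapent ethyl mice 1 and 2, where the elastase inhibitor *Slpi* was highest, they summed to 8.89 and 11.4 CPM. Endothelial markers summed to 444 to 786 CPM, and 0 of 4 were called. Their part in the result was not tested.

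**Figure D4:**
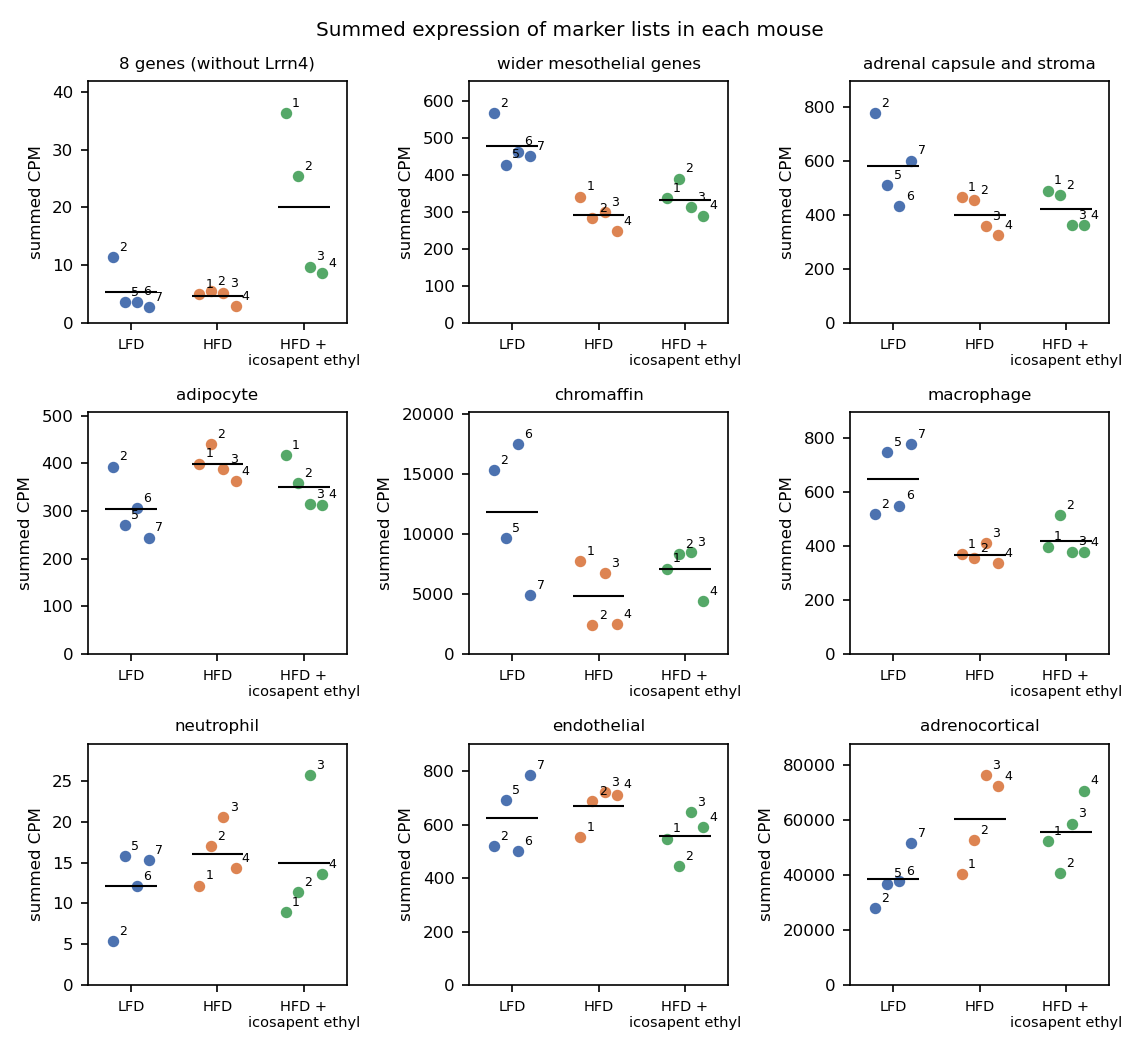
Each panel plots the summed CPM of a marker list in the 12 mice, on a linear axis from 0, with points labelled by replicate number and a line at the group mean. The first panel, the 8 genes without *Lrrn4*, is highest in icosapent ethyl mice 1 and 2, while the wider mesothelial and the capsule panels are highest in LFD mouse 2.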

How the data were processed

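Adrenal cortex RNA of 12 mice was measured, 4 per group. Raw counts per gene were deposited by the authors, made from strand-specific total RNA libraries with cutadapt, STAR on GRCm38, and HTSeq 0.6.1p1 in reverse-strand mode on GENCODE M12. Symbols and exons came from GENCODE M21. Groups were taken from the labels, whose numbers name the mice. All 66 pairs of libraries differed by more than sampling noise (lowest chi-square per degree of freedom 24.5). Nothing states that mice were housed or processed apart, so p-values measure the spread between these mice.

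CPM values used TMM factors over the 12 mice. Groups were compared with edgeR 4.0.16 in R 4.3.3 using TMM, the filterByExpr filter at 10 counts, a robust quasi-likelihood test, and p-values adjusted after Benjamini and Hochberg over all genes tested (threshold 0.05). Each fit held only the mice compared. The SE of an edgeR log2 fold change was its absolute value divided by the square root of the quasi-likelihood F statistic. It is therefore approximate, above all for genes with few reads. Log2 CPM for profiles used a prior count of 2. Intervals and limits at 0 cover counting error only. The members and lists were chosen with earlier results of these data known. The text names the 9 genes, list genes that passed for HFD against LFD, up to 6 genes per list of the highest mean CPM otherwise, and the 10 most similar genes, and lists were mesothelial, capsule and stroma, uroplakin, urothelium, kidney, pancreas, liver, adipocyte, neutrophil, macrophage, chromaffin, endothelial, and adrenocortical. *Muc16*, *Bnc1*, *Calb2*, *Gpm6a*, *Krt8*, and markers at 0 were named as exceptions after their values were seen. So were *Serpina5*, *Rsrp1*, and *Mettl27*, which DESeq2 called for icosapent ethyl against HFD.

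HFD and icosapent ethyl mice share the numbers 1 to 4. For mice with the same number, departures from the group mean had correlations of 0.254, 0.122, 0.354, and 0.654, all above 0.1, which met the rule for pairing, although other pairs reached 0.621 and no label says what a number marks. The values printed come from the fit without the number, and the fit with it as a block is an alternative. Alternatives were DESeq2 1.42.0, its size factors, library totals, no filter, 10 or more counts in each mouse, 1 fit to the 12 mice, each mouse left out, and the number as a block. The edgeR steps were tested on simulated data. Protein sequences were not used here.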

Additional observations from a re-analysis of the deposited data

Results flagged for a closer look

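Of 27 groups of 4 mice checked (9 genes in 3 groups), 2 held a mouse far from the others, and chance alone gives about 1 in 20. *Upk1b* was 0.451 CPM in LFD mouse 2, and the gap to the next mouse was 0.843 of the range of the group. *Krt19* was 0.677 CPM in the same mouse, with a gap of 0.857 of the range. LFD mouse 2 also had the highest capsule and stroma sum of the 12 mice, 777 CPM, and the lowest sum of steroidogenic markers, 28020 CPM, and their part in its values was not tested.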

How the results depend on the processing

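In HFD versus LFD mice, where 230 genes passed, 84 passed with library totals, 2019 with the Wald test of DESeq2, and 556 with all 12 mice in 1 fit, and from 0 to 918 passed when 1 mouse was left out (918 without HFD mouse 1, 78 without LFD mouse 2, and 0 without any other). Of the 9 genes, 1 (*Lrrn4*) passed with DESeq2 and 1 with all 12 mice. Library totals moved the median of all genes to -0.11 and *Slpi* to -0.0092. Over the fits without 1 mouse, *Slpi* ran from -0.21 to 1.22, *Upk3b* from -0.78 to 0.99, *Msln* from -0.43 to 0.23, *Wt1* from -0.21 to 0.042, and the median of the tested genes from -0.43 to 0.55. For icosapent ethyl versus HFD, the median of the 9 genes was 0.93 with at least 10 counts in every mouse, which kept 5 of them, and DESeq2 called 6 genes, 3 of the 9. For icosapent ethyl versus LFD, that filter kept 3 genes with a median of 0.57, DESeq2 called 471 genes and 3 of the 9, all 12 mice in 1 fit gave 2 genes, and leaving out 1 mouse gave 0 to 1 genes and medians from 1.77 to 3.31, the highest without LFD mouse 2. *Upk1b* was 4.57 without that mouse. The replicate number as a block changed no call for icosapent ethyl versus HFD, with 0 genes called, 696 at an unadjusted p under 0.05 against 221 without the block, and a median of 2.11 over the 9 genes. No paired analysis was possible for the other comparisons because LFD mice share only the number 2 with the other groups. Icosapent ethyl against HFD kept its direction for each of the 9 genes under every alternative that fitted the gene. The filter of 10 counts in every mouse fitted only 5 of them. The genes were picked on this contrast, so a kept direction is a description. The counts of the 9 that DESeq2 called in either icosapent ethyl comparison are descriptions too. The cause of these differences was not tested. *Upk1b*, *Krt7*, *Pkhd1l1*, and *Wt1* had at most 83 reads in any mouse, which limits their precision along with the 4 mice per group.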
